A study of Mus musculus with 6 samples.

Results

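Genes of mitosis and the G2/M transition stood higher in lungs with an activated dominant-negative BMP type 2 receptor (BMPR2) transgene than in control lungs, at both durations studied. The set held 40 genes, chosen by name for their roles in cell division with earlier results of these arrays known, so its counts are a description. Every probe set whose only annotated symbol was one of these names was taken. These were 89 probe sets of 39 genes, out of 45037 probe sets and 18193 genes with a symbol of their own on the array. No probe set carried the symbol of the mitotic cyclin Ccnb1 alone, and that gene's level is not reported here. Each gene is represented by its brightest probe set. After 8 weeks of activation, 32 of the 39 genes were higher than control in both sexes, as were 36% of all genes, and 0 were lower in both, as were 20.7% of all genes. The median difference was 0.82 on the log2 scale, and 1 gene, the ubiquitin-conjugating enzyme Ube2c, passed the test, where 0.596% of all tested probe sets passed. This call was lost in 10 of 18 alternative settings. After 1 week the median was 0.64 and no gene passed.

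The samples were whole lungs from mice, and each of the 6 Affymetrix arrays held a pool of 3 animals. There were 3 groups, each of 1 female and 1 male pool. The first group carried the inducible SM22-dnBMPR2 transgene, activated for 8 weeks, and the second carried the same transgene activated for 1 week. SM22 is the smooth muscle gene Tagln, whose promoter drives the transactivator rtTA, so that the dominant-negative receptor is directed to smooth muscle. The third group was control: the male pool was labelled as carrying SM22-rtTA alone, the female pool only as FVB/N. The series description gave the transactivator alone for all controls and raised right ventricular pressure for the transgenic mice. No age was given for any group, and no activation time for the controls. Both durations were set against the same pair of control pools, so the 2 differences are not independent. Any difference in age or handling between the groups cannot be told apart from the transgene.

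Cells that divide build a mitotic apparatus and take it apart again within each cycle. The cyclin-dependent kinase Cdk1 with cyclins A and B drives entry into mitosis, kinases and motor proteins build the spindle, and the spindle checkpoint holds the chromosomes until each is attached. The anaphase-promoting complex then marks cyclins and other mitotic proteins for destruction, and the cell divides in cytokinesis. Most cells of the adult lung are not dividing, so transcripts of these genes are thought to come mainly from cells in the cycle. Which cells gave the signal on these arrays was not measured. In whole tissue, more cycling cells and more of the RNA in each cycling cell cannot be told apart.

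Many of these genes are known to be transcribed together late in the cycle, through a promoter element called the cell cycle genes homology region (CHR), bound by the MuvB complex, and through CCAAT boxes, bound by NF-Y. The promoter windows of the reference (RefSeq, GRCm38.p6; 250 bases before to 50 after the gene's start) were searched on both strands for 5 elements. The CHR was searched as TTTGAA and its known variant as the letters TTCGAA. The box bound by NF-Y was searched as CCAAT. The GC box, bound by Sp1 and its relatives, was searched as GGGCGG. The E2F site was searched in the form TTCCCGC, also in the related form TTGGCGC, and in addition in the form TTCGCGC. A window was available for 34 of the 40 genes, 36 windows in all. A CHR or its variant was present in 80.6% of these windows, against 19.2% of all 32851 windows, and a CCAAT box in 80.6% against 37.4%. Both elements together were present in 72.2%, against 7.52% of all windows. The E2F site, an element of genes switched on earlier in the cycle, was present in 16.7% of these windows, against 58.2% of windows of DNA replication and G1/S genes and 8.07% of all windows. The CHR and variant matches lay close to the gene's start: 28 of 40 began within 50 bases of it (70%), against 25.2% of such matches in all windows. Matches were counted per window, and Ect2 and Prc1 each have 2 overlapping windows that share theirs. A match is a description of the letters and not evidence of a bound site.

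Windows of 5 genes are shown, in lower case and in the direction of transcription, with CHR, CHR variant and CCAAT matches of either strand in capitals. Ube2c is the gene that passed, Cdk1 and Top2a had the largest differences with a CHR, Bub1 held only the variant, and Mad2l1, with one of the smallest differences, held no CHR and no CCAAT box. They lie at chr2:164769679-164769978 (plus strand), chr10:69352863-69353162 (minus), chr11:99024140-99024439 (minus), chr2:127831810-127832109 (minus) and chr6:66534971-66535270 (plus).
Ube2c: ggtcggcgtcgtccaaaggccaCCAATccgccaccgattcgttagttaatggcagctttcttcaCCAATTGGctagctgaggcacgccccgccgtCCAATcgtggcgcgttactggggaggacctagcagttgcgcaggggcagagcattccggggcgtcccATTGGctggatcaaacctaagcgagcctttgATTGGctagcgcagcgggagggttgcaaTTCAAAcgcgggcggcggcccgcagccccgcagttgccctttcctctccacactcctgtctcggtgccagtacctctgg
Cdk1: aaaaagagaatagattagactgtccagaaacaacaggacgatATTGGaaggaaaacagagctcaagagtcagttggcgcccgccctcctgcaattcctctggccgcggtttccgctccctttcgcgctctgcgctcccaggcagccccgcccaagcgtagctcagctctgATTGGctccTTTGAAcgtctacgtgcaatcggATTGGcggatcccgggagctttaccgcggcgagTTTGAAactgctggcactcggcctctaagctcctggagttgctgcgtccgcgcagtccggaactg
Top2a: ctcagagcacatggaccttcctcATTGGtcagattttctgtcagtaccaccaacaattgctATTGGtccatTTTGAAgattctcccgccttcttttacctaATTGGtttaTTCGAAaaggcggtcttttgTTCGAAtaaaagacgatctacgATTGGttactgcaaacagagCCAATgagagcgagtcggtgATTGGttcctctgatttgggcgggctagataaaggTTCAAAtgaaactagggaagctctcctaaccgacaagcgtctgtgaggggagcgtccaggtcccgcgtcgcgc
Bub1: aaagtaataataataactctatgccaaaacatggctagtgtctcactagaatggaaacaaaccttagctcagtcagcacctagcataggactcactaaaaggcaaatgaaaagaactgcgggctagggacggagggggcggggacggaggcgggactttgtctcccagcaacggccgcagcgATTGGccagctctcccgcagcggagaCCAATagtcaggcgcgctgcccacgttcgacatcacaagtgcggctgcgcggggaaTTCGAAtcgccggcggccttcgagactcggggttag
Mad2l1: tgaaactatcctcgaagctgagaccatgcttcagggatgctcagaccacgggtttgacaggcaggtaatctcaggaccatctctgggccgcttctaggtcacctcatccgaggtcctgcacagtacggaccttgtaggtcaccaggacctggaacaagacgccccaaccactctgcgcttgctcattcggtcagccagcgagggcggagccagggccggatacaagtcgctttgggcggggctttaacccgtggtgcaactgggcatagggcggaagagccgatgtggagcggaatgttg
The Ube2c window held 6 CCAAT boxes on either strand, of which 2 overlap, and 1 CHR that begins 29 bases before the start. Cdk1 held a CHR 15 bases and another 71 bases before the start, and Top2a held 6 CCAAT boxes, 2 CHRs and 2 variants. Among the genes with both a level and a window, the 27 with a CHR or variant had a median 8 week difference of 0.84. The 6 without one had a median of 0.82. Like Mad2l1, the genes Nuf2 (1.56 or more), Birc5 (1.42) and Nusap1 (0.81) held neither a CHR or variant nor a CCAAT box.

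**Figure D1:**
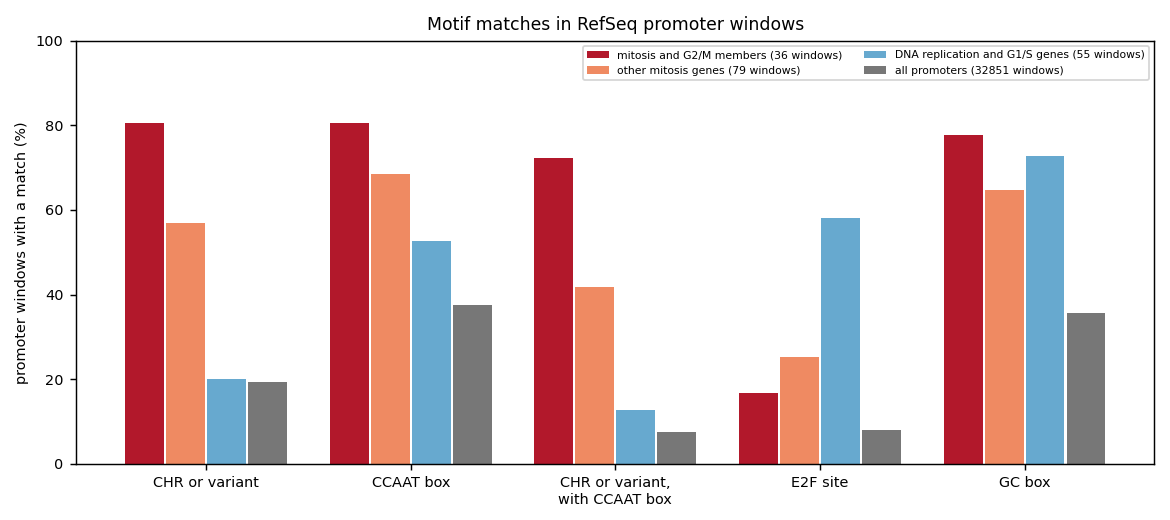
Share of RefSeq promoter windows (vertical axis, percent) that hold at least one match to each element (horizontal axis), for the mitosis and G2/M genes (36 windows), other mitosis genes (79), DNA replication and G1/S genes (55) and all windows (32851). A CHR or its variant, and likewise a CCAAT box, is present in 80.6% of the mitosis and G2/M windows, and E2F sites stand highest in the replication genes at 58.2%.

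The first comparison was lung after 8 weeks of activation against control. Levels are log2 intensities and differences are in log2 units, quantile normalized over the 6 arrays, with lower values set to a floor of 3.95 (the 20th percentile of all values). A probe set was tested where its mean level was above 5.15, and a difference passed where its p in limma, adjusted by Benjamini-Hochberg over all tested probe sets, was below 0.05. Ube2c, which works with the anaphase-promoting complex, had log2 intensities of 6.99 and 7.13 in the female and male 8 week pools, against 5.69 and 5.64 in the control pools. Neither group's pools overlapped the other's, and the difference of 1.39 ± 0.13 (standard error), or 2.63-fold, passed in limma (adjusted p = 0.047). It was 1 of 40 mitosis and G2/M probe sets above the intensity filter, in 30 of the 39 genes. Of all 27022 probe sets above the filter, 0.596% passed, 0.207% higher and 0.389% lower. The adjusted p was the smallest in this comparison and was shared by other probe sets. The call was lost in 10 of the 18 alternatives that tested it: with no filter (adjusted p = 0.161), without the sex term (0.127), on the 4 arrays compared alone (0.144), by least squares (0.274), over probe sets with 1 symbol (0.0521), and without the female control (0.241), male control (0.157), female 1 week (0.153), male 1 week (0.143) or female 8 week pool (0.0877). It held without the male 8 week pool (0.0423), the difference lay between 1.15 and 1.46 in all 18, and with the 60th percentile filter Ube2c was too dim to be tested.

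The kinase Cdk1 and its cyclins stood among the largest differences. Cdk1 had log2 intensities of 7.92 and 7.98 in the female and male 8 week pools, against 6.14 and 6.04 in the control pools. Its difference of 1.86 ± 0.23, or 3.63-fold, was the largest of the set by brightest probe set and missed the threshold in limma (adjusted p = 0.057). Cyclin A2 (Ccna2), which pairs with Cdk1 and Cdk2, had 7.35 and 7.88 at 8 weeks and 6.25 and 6.05 in control, a difference of 1.46 ± 0.27 (adjusted p = 0.088). Its second probe set differed by 1.05. Cyclin B2 (Ccnb2) differed by 1.17. In all 3 genes both 8 week pools lay above both controls, as in 23.7% of all 18193 genes, and none passed.

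The proliferation markers Top2a and Mki67 were also higher in both 8 week pools. Top2a, the topoisomerase that untangles chromosomes before they separate, had 7.11 and 7.60 in the female and male 8 week pools, against 5.83 and 5.68 in the control pools (difference 1.60 ± 0.24, adjusted p = 0.071 in limma). Its 2 other probe sets were below the filter, so the value rests on the brightest. They differed by −0.66 or lower, with the female 8 week pool at the floor, and by 0.08, with both control pools at the floor. Mki67, the gene of the Ki-67 antigen that coats mitotic chromosomes, had 7.60 and 7.93 at 8 weeks and 6.64 and 6.29 in control (1.30 ± 0.25, adjusted p = 0.092). The pools of the 2 groups did not overlap for either gene.

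Among the spindle checkpoint genes, whose products delay anaphase until chromosomes are attached, the checkpoint kinase Bub1 had 5.93 and 6.68 in the female and male 8 week pools, against 4.63 and 4.90 in the control pools. The difference was 1.54 ± 0.25 (adjusted p = 0.075 in limma). A second, dim probe set differed by −0.26, with both 8 week pools and the female control at the floor. Bub1b (BubR1) differed by 0.63 at its brightest probe set. Its others differed by at least 0.88, with 3 arrays at the floor and below the filter, and at least 2.16, with 1 array at the floor. In each of these a control pool lay at the floor. The checkpoint kinase Ttk (Mps1), below the filter, differed by 0.98 or more, with the female control at the floor. Mad2l1, which encodes the checkpoint effector Mad2, had a small difference, with 7.93 and 7.42 at 8 weeks and 7.69 and 7.16 in control, overlapping pools and a difference of 0.25 ± 0.15 (adjusted p = 0.37).

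The chromosomal passenger complex, which corrects faulty attachments and guides cytokinesis, includes Birc5 (survivin). Birc5 had 7.42 and 8.55 in the female and male 8 week pools, against 6.50 and 6.64 in the control pools (1.42 ± 0.27, adjusted p = 0.092 in limma). Both 8 week pools lay above both controls, by more in males. The kinase of the complex, Aurkb, was below the filter and differed by 0.53. Cdca8 (borealin) was split between its probe sets and between the sexes. The brightest had 7.21 and 5.23 at 8 weeks and 5.41 and 5.40 in control, high in the female pool alone. The other 2 differed by 1.33 and by 1.32 or more, the last with the male control at the floor. At 1 week the brightest probe set had 7.84 in the female and 4.63 in the male pool. Its change differed between females and males by 2.58 (unadjusted p = 0.008, adjusted p = 1 in limma's interaction model), the 1 mitosis and G2/M probe set under 0.05 before adjustment, where 2.35% of all probe sets were.

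Of 5 centromere and kinetochore genes, 4 were below the filter. Nuf2, a subunit of the NDC80 complex that binds spindle microtubules, had 4.85 and 6.17 in the female and male 8 week pools, while both control pools lay at the floor of 3.95. Its difference of 1.56 is therefore a lower bound, and the gene was below the filter and untested. Cenpf and Cenpe, also below the filter, differed by 1.02 and 0.84. Ndc80, below the filter too, differed by 0.58 or more, with the female control at the floor. The centromeric histone Cenpa was the only one of the 5 above the filter and differed by 0.63, with −0.07 and 0.07 on its other probe sets.

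Differences of the 6 kinesin motors lay between −0.49 and 1.37. Kif22, the chromokinesin that pushes chromosome arms to the spindle's middle, had 7.0 and 8.30 in the female and male 8 week pools, against 6.03 and 6.53 in the control pools (1.37 ± 0.23, adjusted p = 0.076 in limma). Its pools did not overlap control. Its other probe sets differed by at least 0.49, with the male control at the floor, and at least 1.15, with both control pools at the floor. Kif20a (0.96 or more, with the male control at the floor), Kif4 (0.81) and the centralspindlin motor Kif23 (0.74) were higher in both sexes. Kif11, the motor that separates the spindle poles, differed by −0.07. Its other probe sets differed by −0.38 or lower, with both 8 week pools at the floor, and by 0.71. Kif2c, which takes apart microtubules at kinetochores, had the lowest difference of the 39 genes at −0.49 or lower, with the female 8 week pool at the floor (3.95) and the male at 5.73, against 5.03 and 5.62 in control. Its second probe set above the filter differed by 0.71.

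None of the spindle pole kinases and spindle proteins passed. Aurka (Aurora A), a kinase of the spindle poles, had 5.98 and 5.50 in the female and male 8 week pools, against 4.68 and 4.99 in the control pools (0.90 ± 0.22, adjusted p = 0.122 in limma). Plk1 and Nek2, kinases of the centrosome and spindle, differed by 0.39 and 0.38. Other Nek2 probe sets differed by 0.335, above the filter, and by 0.14 and −0.33, below it and partly at the floor. Tpx2, which activates Aurora A on the spindle, had 6.50 and 6.32 at 8 weeks and 5.99 and 6.22 in control (0.30 ± 0.21, adjusted p = 0.431). Spag5 (astrin) had 5.42 and 4.89 at 8 weeks and 5.45 and 4.45 in control, with overlapping pools (0.21 ± 0.17, adjusted p = 0.502). Hmmr, a spindle assembly protein also known as a hyaluronan receptor, had 7.95 and 6.99 at 8 weeks and 7.88 and 6.68 in control (0.19 ± 0.14, adjusted p = 0.459). For these last 2 genes the sexes lay further apart than the groups at the brightest probe set. Other probe sets, all below the filter, differed by −0.52 to 0.64 for Tpx2, 0 to 0.09 for Spag5 and 0 to 0.68 for Hmmr. Nusap1, a microtubule-bundling protein, differed by 0.81 and Dlgap5 at −0.01.

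Of 4 cytokinesis genes, 3 had both 8 week pools above both controls, where 23.7% of all genes did, and none passed. Ect2, which activates RhoA at the cleavage furrow, had 6.36 and 6.57 in the female and male 8 week pools, against 5.06 and 5.61 in the control pools (1.13 ± 0.23, adjusted p = 0.101 in limma). Anillin (Anln), the scaffold of the contractile ring, also differed by 1.13, and the midzone protein Prc1 by 0.89, both without overlap. Racgap1, the partner of Kif23, had 6.61 and 5.09 at 8 weeks and 7.04 and 3.95 in control, lower in females and higher in males, with the male control at the floor. Its second probe set above the filter differed by 1.09. Of the remaining genes, Cdc20, the activator of the anaphase-promoting complex, differed by 0.37, with 0.64 and 1.02 on its other probe sets. Cdca3, a trigger of mitotic entry, differed by 0.84, with 0.36 and 0.79 on its other probe sets. The transcription factor Foxm1, which drives many G2/M genes, had 5.67 and 5.81 at 8 weeks and 5.07 and 5.56 in control (0.42 ± 0.15, adjusted p = 0.202). Its second probe set above the filter differed by 0.445. Its dim ones, with arrays at the floor, differed by −0.29 and 0.

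**Figure D2:**
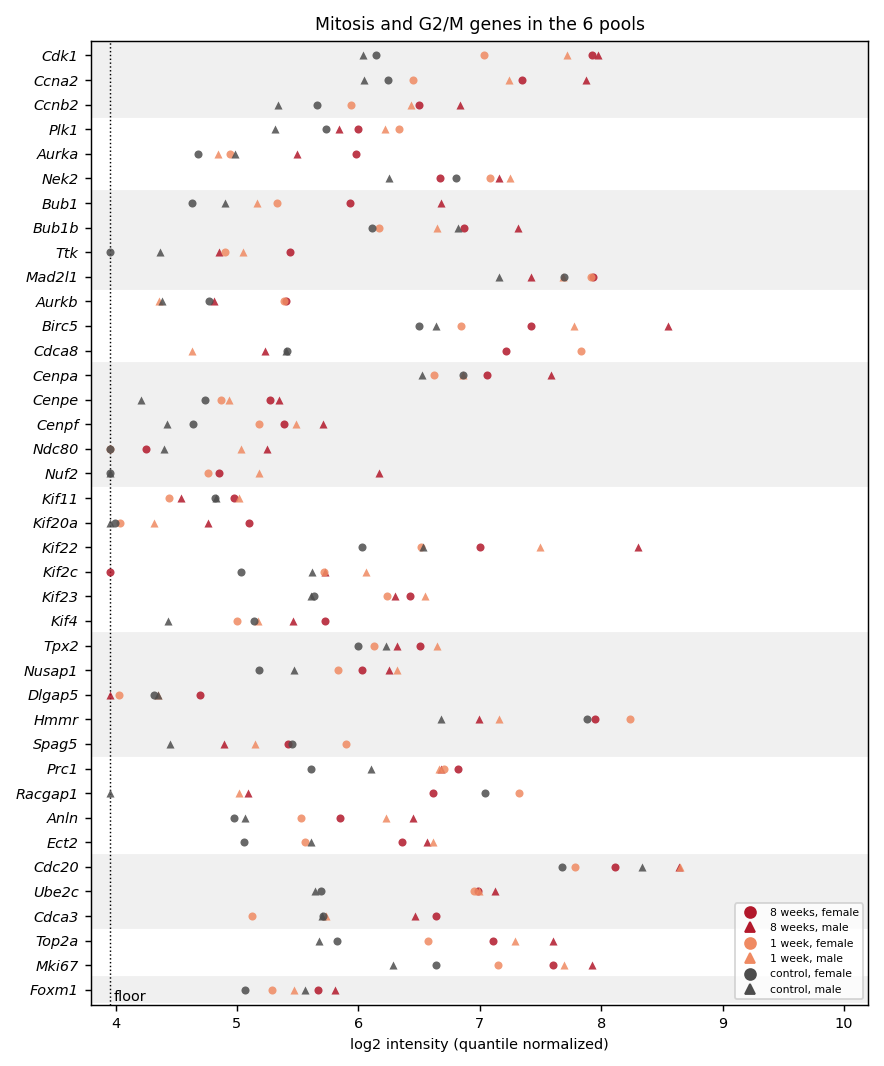
Log2 intensity (horizontal axis, quantile normalized) of the brightest probe set of each of 39 mitosis and G2/M genes (rows, grouped by role with grey bands) in each of the 6 pools; circles are female and triangles male pools, and the dotted line is the floor at 3.95. For Cdk1, Top2a, Mki67 and Ube2c the 4 transgenic pools lie right of both control pools.

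Counted over genes, 28 of 39 had both 8 week pools above both control pools and 0 had both below, where 23.7% and 11.9% of all 18193 genes did. The 32 genes higher in both sexes compare with 36% of all genes. The median difference of 0.82 (0.79 in females, 0.81 in males) compares with 0.06 over all genes, and 23 of the 39 lay above the 95th percentile of all genes' differences, 0.72. Over all 89 probe sets of these genes the median was 0.53. The 40 above the filter had a median of 0.81 and the 49 below it one of 0.14, with 8 of these at the floor on all 6 arrays. The genes were chosen with earlier results of these arrays known, and these counts are therefore a description. A total of 27 of the 40 probe sets above the filter had an unadjusted p below 0.05 in limma and were higher, and 0 were lower, where 11.8% and 11.2% of all probe sets did so. The filter used the mean over all 6 pools, so some probe sets passed it only through their transgenic pools. Bub1, for example, had a control mean of 4.77, below the filter's 5.15. The counts of higher and lower probe sets are therefore not independent of the difference.

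**Figure D3:**
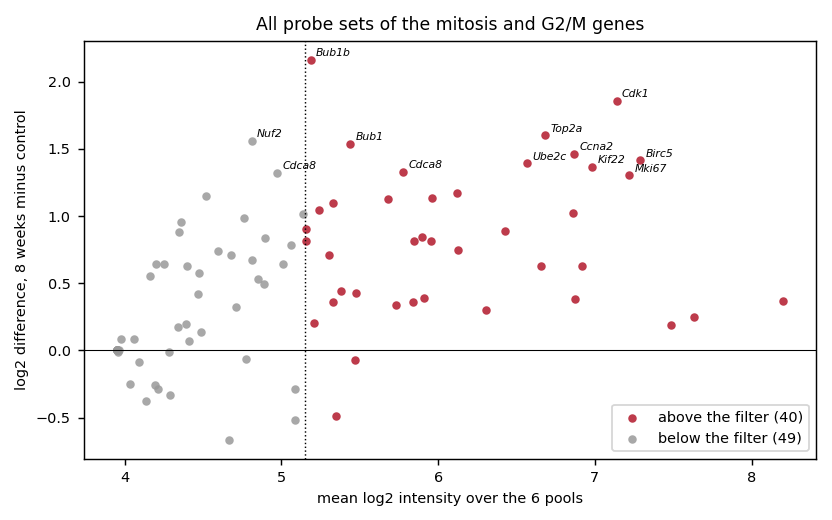
Log2 difference between 8 weeks and control (vertical axis) against mean log2 intensity over the 6 pools (horizontal axis) for all 89 probe sets of the mitosis and G2/M genes; red points lie above the intensity filter (dotted line) and grey points below it. The 40 brighter probe sets have a median of 0.81 and the 49 dimmer ones 0.14. The filter used the mean over all 6 pools, so these medians are not independent of the difference.

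The second comparison was lung after 1 week of activation against the same control pools. No probe set passed in limma (0 of 27022, 0%), and the smallest adjusted p in the mitosis and G2/M set was 0.766, for Ube2c. Ube2c had log2 intensities of 6.95 and 7.0 in the female and male 1 week pools, against 5.69 and 5.64 in control, a difference of 1.31 ± 0.13. Both 1 week pools lay above both controls. Cdk1 had 7.04 and 7.72 at 1 week (1.29 ± 0.23), Top2a 6.57 and 7.29 (1.18 ± 0.24), and Mki67 7.15 and 7.70 (0.96 ± 0.25). At these probe sets the 1 week pools of the 3 genes lay above both controls, and none passed. A second Top2a probe set, below the filter, went the other way: it had 3.95 (the floor) and 4.24 at 1 week, against 5.44 and 5.14 in control, a difference of −1.19 or lower. A total of 19 probe sets had an unadjusted p below 0.05 and were higher and 0 were lower, where 3.03% and 2.47% of all probe sets did so. As at 8 weeks, these counts are not independent of the filter, which used the transgenic pools too.

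Over the 39 genes, 28 were higher than control in both sexes at 1 week and 0 lower in both, where 27.9% and 18% of all genes were. Both 1 week pools lay above both controls for 20 genes and below both for 0, where 13.4% and 7.2% of all genes did so. The median difference was 0.64, against 0.02 over all genes, and the male pool's (0.70) exceeded the female pool's (0.36). Without the male control the median was 0.33, and without the female control 0.71. With every probe set in place of the brightest it was 0.28. By brightest probe set, some genes stood near control at 1 week. Aurka had 4.94 and 4.84, a difference of 0.06, Bub1b differed by −0.05, Cenpa by 0.05 and Foxm1 by 0.07. The other Bub1b probe sets differed by 1.01 or more, with the female control at the floor, and by −0.15, below the filter. The second Foxm1 probe set above the filter differed by −0.25. It had 5.08 and 5.04 at 1 week, below both controls (5.21 and 5.41). Its dim ones, with arrays at the floor, differed by 0.17 and 0. Cdca3 was the lowest by brightest probe set at −0.28, with 0.09 and 0.32 on its other probe sets. Other genes differed by more at 1 week than at 8 weeks by brightest probe set, 9 of the 39 in all. Among them were Plk1 (0.75), Kif2c (0.56), Spag5 (0.57), Nek2 (0.64) and Hmmr (0.42). The second Kif2c probe set above the filter went the other way, at 0.39 against 0.71 at 8 weeks. So did dim Hmmr probe sets, at 0.01 against 0.625, with arrays at the floor, and at 0.15 against 0.32. Its remaining dim ones stood at 0.68 against 0.68 and at 0.04 against 0. The second Nek2 probe set above the filter stood at 0.38 against 0.335.

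Other genes with large 8 week differences lay, on average, between control and 8 weeks at 1 week. Ccna2 had 6.45 and 7.24 in the female and male 1 week pools, against 6.25 and 6.05 in control (0.70 ± 0.27, adjusted p = 0.901 in limma). Birc5 had 6.85 and 7.78, against 6.50 and 6.64 in control, and differed by 0.74. Both of these genes had 1 week pools above both controls. Kif22 had 6.52 and 7.50 at 1 week, against 6.03 and 6.53 in control, with overlapping pools and a difference of 0.72. Bub1 had 5.33 and 5.16, against 4.63 and 4.90 in control, without overlap (0.48). Ect2 had 5.56 and 6.61, against 5.06 and 5.61 in control, with overlap (0.75), and Nuf2 4.76 and 5.18 against the floor in both controls, a lower bound of 1.02. Of the genes with small 8 week differences, Mad2l1 had 7.92 and 7.68 at 1 week, against 7.69 and 7.16 in control (0.37), and Tpx2 6.13 and 6.65, against 5.99 and 6.22 in control (0.28). The 1 week and control pools overlapped for both. Spag5 had 5.90 and 5.15, against 5.45 and 4.45 in control, and Hmmr 8.24 and 7.16, against 7.88 and 6.68 in control. In both of these genes each 1 week pool lay above the control pool of its sex, and the groups overlapped. Foxm1 had 5.29 and 5.47, against 5.07 and 5.56 in control.

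**Figure D4:**
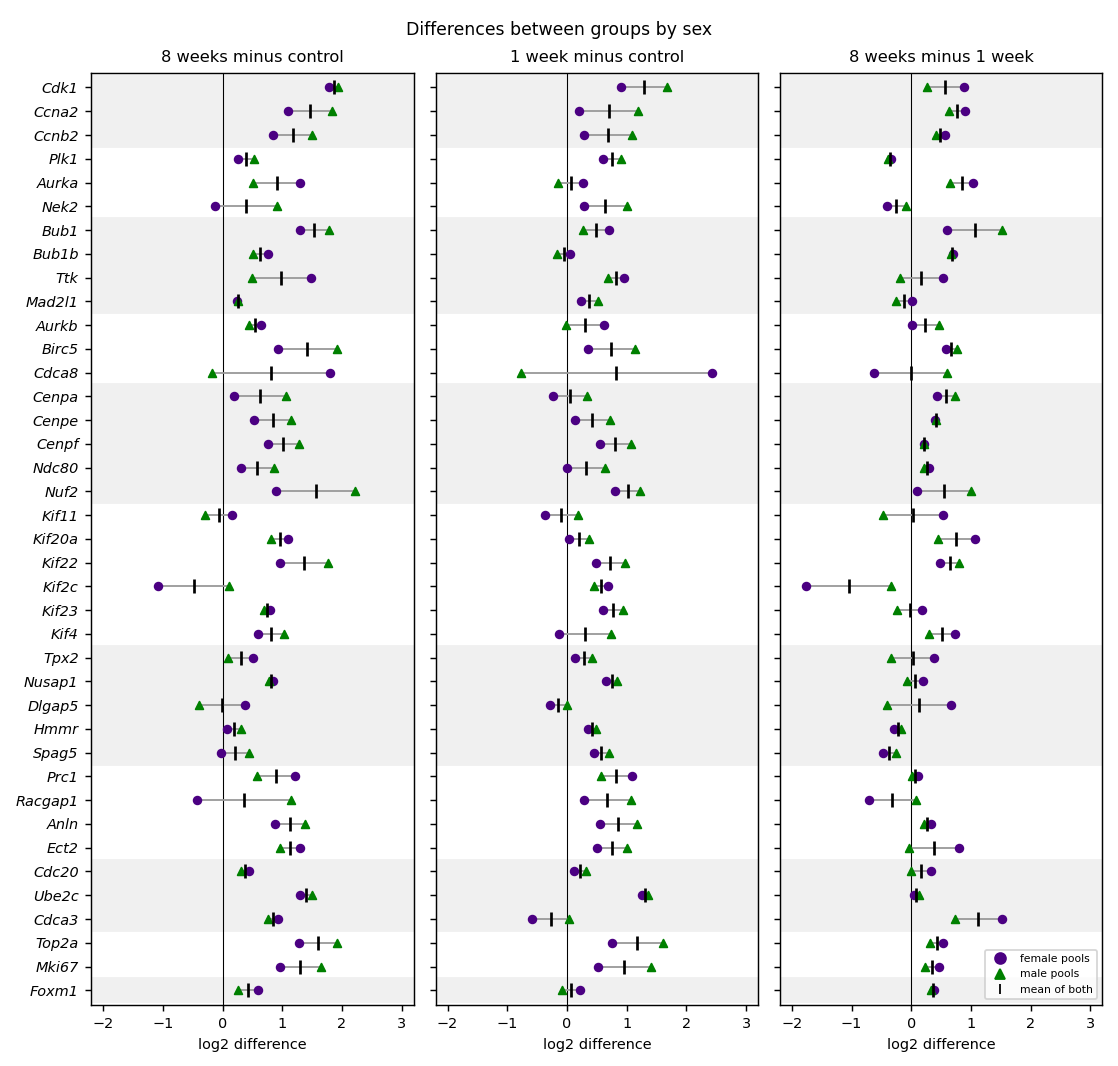
Log2 differences (horizontal axes) for 8 weeks minus control, 1 week minus control and 8 weeks minus 1 week, for the brightest probe set of each gene (rows); circles are the female and triangles the male difference, and the tick is their mean. Ube2c lies at 1.39 and 1.31 against control and near 0 between the durations, while Bub1 and Cdca3 lie at 1.06 and 1.12 between the durations.

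The third comparison set 8 weeks against 1 week directly, and no probe set passed in limma (0 of 27022, 0%). In the set, 12 probe sets were higher and 1 was lower at an unadjusted p below 0.05, where 9.32% and 9.18% of all probe sets were. These counts, too, are not independent of the filter. The smallest adjusted p was 0.135, for a Cdca8 probe set. The largest differences by brightest probe set were those of Cdca3 (1.12; 6.64 and 6.47 in the 8 week pools, against 5.12 and 5.74 in the 1 week pools), Bub1 (1.06; 5.93 and 6.68 against 5.33 and 5.16) and Aurka (0.84; 5.98 and 5.50 against 4.94 and 4.84). At these probe sets of the 3 genes the durations did not overlap. The other Cdca3 probe sets differed by 0.27, with overlap, and by 0.46. The second, dim Bub1 probe set differed by −0.47 or lower, with both 8 week pools at the floor. Cdk1 differed by 0.57 ± 0.23 (adjusted p = 0.284) and Ube2c at 0.08 ± 0.13 (adjusted p = 0.77). By brightest probe set, Kif2c (−1.05 or lower, with the female 8 week pool at the floor) and Plk1 (−0.36) were lower at 8 weeks. The Kif2c pools overlapped, and its other probe sets differed by 0.32 (above the filter), 0.44 and −0.06.

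Over the 39 genes, 23 were higher at 8 weeks than at 1 week in both sexes and 5 were lower in both, where 34.3% and 24.5% of all genes were. Both 8 week pools lay above both 1 week pools for 12 genes and below for 1, where 20.7% and 13.4% of all genes did so. The median was 0.26, against 0.03 over all genes. It was 0.10 in the values as deposited, 0.09 without the female 1 week pool and 0.42 without the male 1 week pool. The mean log2 level of the 39 genes was 6.28 and 6.36 in the female and male 8 week pools, 5.99 and 6.13 in the 1 week pools and 5.57 and 5.47 in the control pools. Of the 39 genes, 26 reached their highest level in an 8 week pool, 13 in a 1 week pool and 0 in a control pool.

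**Figure D5:**
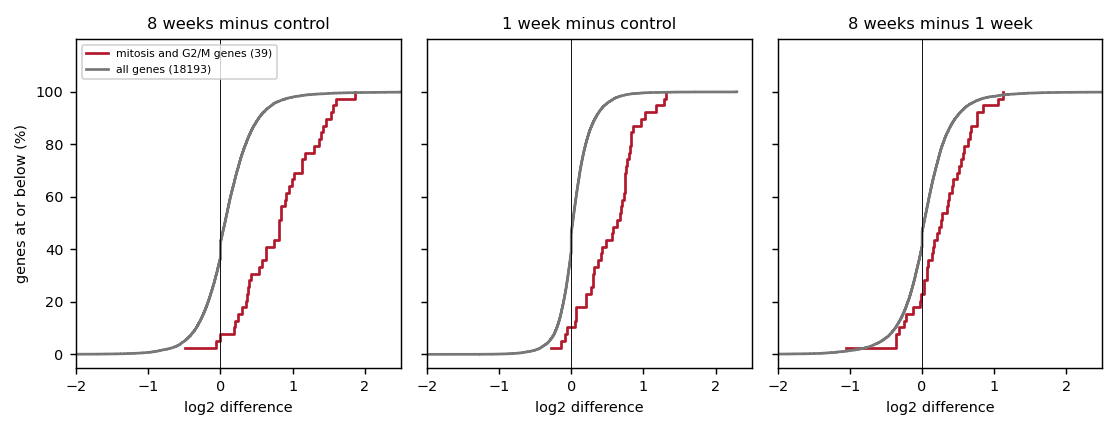
Share of genes (vertical axis, percent) at or below each log2 difference (horizontal axis, drawn from −2 to 2.5), for the 39 mitosis and G2/M genes in red and all 18193 genes in grey. The red curve lies right of the grey one over most of its range in each panel, with medians of 0.82 and 0.06 for 8 weeks minus control, 0.64 and 0.02 for 1 week minus control, and 0.26 and 0.03 for 8 weeks minus 1 week.

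Females and males were compared through the interaction of transgene and sex, with both durations together. No probe set passed (0 of 27022, 0%), and in the set 0 of 40 did, with a smallest adjusted p of 1 in limma. In this model the 8 week and 1 week pools of a sex stood as replicates, so changes between the durations counted as spread. The control pools had no replicate. The lack of calls therefore does not show that the sexes changed alike. The median difference between the female and male changes over the 39 genes was −0.23 (female minus male). Within groups, 29 of 39 genes were higher in the male than the female pool at 1 week, 22 at 8 weeks and 17 in control. This was a difference between single pools and has no replicate.

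The rest of the division cycle was read from lists of genes outside the set, each by its brightest probe set. Over all genes, 36% were higher in both sexes at 8 weeks and 20.7% lower, and 0.207% of all tested probe sets passed as higher. Of 84 other mitosis genes, 48 were higher in both sexes at 8 weeks and 6 lower (median 0.38), and 1 passed: Diaph3, a formin that assembles actin filaments. Diaph3 had 7.16 and 7.09 in the female and male 8 week pools, against 3.95 (the floor) and 4.75 in the control pools, a lower bound of 2.78 ± 0.24 (adjusted p = 0.047 in limma). The Diaph3 call was lost in 9 of the 14 alternatives that tested it (adjusted p between 0.00718 and 0.287), where the difference lay between 1.94 and 3.06. At 1 week it had 4.06 and 4.53 and overlapped the same controls; with the female control at the floor, no exact difference is given. Of 56 DNA replication and G1/S genes, 39 were higher in both sexes and 5 lower (median 0.38), and none passed. The largest differences in that list were those of Uhrf1, which helps copy DNA methylation (1.13), the uracil glycosylase Ung (1.11), the ribonucleotide reductase subunit Rrm2 (1.07) and the Myb factor Mybl2 (0.90, below the filter). At 1 week the medians of these lists were 0.15 and 0.18.

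Upstream regulators had both signs, as did all genes, of which 36% were higher in both sexes at 8 weeks and 20.7% lower. Among 23 MuvB, pocket protein, E2F, Myb and NF-Y genes, 11 were higher in both sexes at 8 weeks and 5 lower (median 0.30), and none passed. The largest differences were those of Mybl2, then E2f2 (−0.86), the MuvB subunit Lin52 (−0.75) and the repressor E2f8 (0.64, below the filter). Among 19 inhibitors of cyclin-dependent kinases and other genes of arrest, 9 were higher and 6 lower (median 0.03), and none passed. The stress-inducible Gadd45b (−0.78), Gadd45g (0.76) and Gadd45a (0.50) and the inhibitor Cdkn2a (0.56, below the filter) stood furthest from 0. In these 2 lists the medians at 1 week were 0.01 and −0.04.

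Markers of cells that could carry division into a lung sample were read in the same way, as the mean log2 level of each list. Over all genes, 36% were higher in both sexes at 8 weeks and 27.9% at 1 week, and 0.207% of all tested probe sets passed as higher at 8 weeks. The tissue had its defining markers: the 10 lung genes, surfactant proteins, Scgb1a1 and endothelial genes among them, had means between 12.34 and 12.41 in all 6 pools. Alveolar macrophage markers, of a cell that renews itself in the lung, were at 9.08 to 9.31 at 8 weeks, 7.07 to 7.85 at 1 week and 6.74 to 7.67 in control (8 of 9 higher in both sexes at 8 weeks and 0 of 9 at 1 week). Mature neutrophil markers, of a cell that no longer divides, were at 8.83 to 9.12 at 8 weeks, 7.46 to 7.90 at 1 week and 7.46 to 7.77 in control (8 of 8 higher in both sexes at 8 weeks, of which 4 passed, and 4 of 8 at 1 week). Platelet and megakaryocyte markers were highest at 1 week, at 7.87 to 8.55, against 7.32 to 7.44 at 8 weeks and 7.40 to 7.54 in control (8 of 9 higher at 1 week, 2 of 9 at 8 weeks). The part of these cells in the differences of the mitosis and G2/M genes was not tested.

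Markers of precursor cells, which divide in other organs, were mostly at low levels. Their counts compare with 36% of all genes higher in both sexes at 8 weeks and 27.9% at 1 week. Of 9 thymocyte markers 3 were higher in both sexes at 8 weeks and Rag1 lay at the floor on all arrays, with a list mean of 5.38 to 5.61 at 8 weeks, 5.36 to 5.53 at 1 week and 5.20 to 5.27 in control. Of 8 immature myeloid markers 3 were higher at 8 weeks and Elane and Ctsg lay at the floor on all arrays, with a list mean of 5.35 to 5.70 at 8 weeks, 5.53 to 5.56 at 1 week and 5.22 to 5.32 in control. Of 10 erythroid markers 4 were higher at 8 weeks and Hemgn lay at the floor throughout, with a list mean of 5.90 to 6.03 at 8 weeks, 6.10 to 6.20 at 1 week and 5.72 to 5.92 in control. The 8 week range lay above control for the thymocyte and immature myeloid lists and overlapped it for the erythroid list. The 1 week ranges lay above control for all 3 lists, with 2 of 9 thymocyte, 4 of 8 immature myeloid and 5 of 10 erythroid markers higher in both sexes. The part of these cells in the differences of the mitosis and G2/M genes at either duration was not tested. T cell markers had means of 7.08 to 7.64 at 8 weeks, 6.61 to 6.71 at 1 week and 6.72 to 7.36 in control, with 4 of 7 higher at 8 weeks. B cell and plasma cell markers had means of 7.58 to 7.63 at 8 weeks, 7.34 to 7.66 at 1 week and 7.28 to 7.83 in control, with 2 of 9 higher at 8 weeks. For both of these lists the 8 week and control ranges overlapped.

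Among resident cells, alveolar type 2 markers had means of 11.82 to 11.87 at 8 weeks, 11.26 to 11.50 at 1 week and 11.27 to 11.48 in control (9 of 9 higher in both sexes at 8 weeks, 2 of 9 at 1 week). Fibroblast markers had means of 10.55 to 10.59 at 8 weeks, 10.81 to 10.89 at 1 week and 10.50 to 10.59 in control (4 of 8 higher in both sexes at 8 weeks, 5 of 8 at 1 week). Smooth muscle markers, of the cell type in which the transgene is driven, had means of 9.12 to 9.41 at 8 weeks, 9.97 to 10.09 at 1 week and 9.59 to 9.90 in control (0 of 8 at 8 weeks, 7 of 8 at 1 week). The 8 week range of this list lay below control, as it did for the endothelial and cardiac lists. Endothelial markers had means of 10.81 to 10.99 at 8 weeks, 10.98 to 11.10 at 1 week and 11.03 to 11.16 in control (0 of 10 at either time). Cardiac muscle markers had means of 6.75 to 8.36 at 8 weeks, 9.05 to 9.81 at 1 week and 9.14 to 9.45 in control (0 of 9 at 8 weeks, 4 of 9 at 1 week). The counts of these lists compare with 36% of all genes higher in both sexes at 8 weeks and 27.9% at 1 week. The part of these cells in the differences was likewise not tested.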

How the data were processed

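Whole lung RNA of 6 pools was measured on Affymetrix mouse arrays. The authors deposited 1 intensity for each probe set on each array, and none lies below 10. The authors' summarization and scaling are not given in the sources used here. Array medians of the deposited intensities were 50.49 and 52.92 at 8 weeks, 60.22 and 57.1 at 1 week and 63.41 and 61.43 in control, and 11.1 to 12.5% of values lay at 10. Arrays correlated pairwise at 0.947 to 0.987, and no 2 were identical. The number of arrays limits the precision.

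Intensities were quantile normalized, floored at the 20th percentile (15.46), and converted to log2. Probe sets whose mean exceeded the 40th percentile were kept (27022 of 45037). Limma 3.58.1 (R 4.3.3) fitted group and sex over all 6 arrays, with 2 residual degrees of freedom and 2.77 prior degrees of freedom, and a second model added the transgene by sex interaction. P-values were adjusted by Benjamini-Hochberg over all kept probe sets, and ± marks the fit's standard error. Sex stood as the pairing of pools across groups, per the labels, and is in the fit. The labels give no separate pool of the same sex in a group, so the p-values measure the spread between pools after the sex term, part of which may be technical. Scripts were tested on simulated data.

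Gene symbols came from the platform annotation: 34945 probe sets had 1 symbol, 932 several and 9160 none, and only those with 1 were used for genes. The brightest probe set stood for each gene. Members described in full were those that passed, the 8 largest and 4 smallest tested 8 week differences by size, and the top gene of each role not yet covered; other genes are given as values, and some of these were singled out after their values were seen. In other lists, the 4 largest differences are named. The members and all gene lists were chosen with earlier results of these data known. Alternatives to the scaling, floor, filter, probe set choice and model were run.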

Additional observations from a re-analysis of the deposited data

How the results depend on the processing

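With 2 pools a group and 2 residual degrees of freedom, the calls moved with the settings more than the differences did, and the causes of the moves were not tested. The number of mitosis and G2/M probe sets passing at 8 weeks, 1 in the report, was 2 in the deposited scaling, 12 after median centring, 2 with the floor at the 40th percentile, 6 on log2(value + 16), 0 with no filter, 4 with the 60th percentile filter, 5 with 1 value per gene, 0 without the replicate block (the sex term that pairs pools), 0 on the 4 arrays compared, 12 with trended robust moderation, 0 by least squares, 0 over probe sets with 1 symbol (added after seeing the data), and 0 to 2 on leaving out an array. Over all probe sets, 161 in the report, these counts were 461, 705, 439, 583, 0, 505, 337, 0, 0, 1916, 0, 1 and 0 to 1087, the last without the male 8 week pool. At 1 week they were 1 with 1 value per gene and 3 with trended moderation. Between durations they were 62 with the 60th percentile filter, 180 with 1 value per gene and 752 with trended moderation, and the interaction had 1 by least squares.

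The 8 week median of 0.816 over the 39 genes stayed above 0 in each alternative run: 0.534 with every probe set (added after seeing the data), 0.609 as deposited, 0.881 centred, 0.492 with the higher floor, 0.607 on log2(value + 16), 0.765 without suffixed probe sets (those that may match several transcripts), 0.576 with 1 value per gene, and 0.714 to 0.889 on leaving out an array. Against these, the median of all genes was −0.03 as deposited and 0.18 centred. The 1 week median of 0.639 was 0.28 with every probe set, 0.28 with the higher floor, 0.383 without suffixed probe sets, 0.341 with 1 value per gene, and 0.325 to 0.713 on leaving out an array. The median between durations, 0.258, was 0.097 as deposited, 0.124 with the higher floor, and 0.09 to 0.422 on leaving out an array. The interaction median of −0.229 was −0.059 with every probe set, −0.125 with the higher floor, −0.135 without suffixed probe sets, −0.113 with 1 value per gene, and −0.334 to −0.154 on leaving out a transgenic array; it could not be estimated without a control array. Filters do not enter the medians.

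Of the mitosis and G2/M genes given with every pool's value by the naming rule, the following changed sign; the other members were not run, though Kif2c at 8 weeks, −0.49 at its brightest probe set, is 0.71 at its brightest unsuffixed one. At 8 weeks Spag5 was −0.016 with the higher floor and Top2a −0.664 or lower without suffixed probe sets. At 1 week Top2a was −1.193 or lower without suffixed probe sets. Aurka was 0 with the higher floor and −0.234 to 0.359 on leaving out an array, lowest without the female control. Foxm1 was −0.003 with 1 value per gene and −0.096 to 0.229 on leaving out an array, lowest without the female control. Between durations Ube2c was −0.064 as deposited, Tpx2 −0.17 as deposited, −0.283 with 1 value per gene, −0.23 without the female 1 week pool and −0.259 (without the female 8 week pool) to 0.303 on leaving out an array, Hmmr 0.613 without suffixed probe sets and 0.102 with 1 value per gene, and Mad2l1 −0.269 to 0.018 on leaving out an array, highest without the male 1 week pool. Probe sets near the floor understate differences.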
